A study of Homo sapiens with 24 samples.

Results

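The 33 mitochondrial ribosomal protein genes described here are all genes whose symbol is MRPL or MRPS followed by a number, with or without a letter, and that stood in every deposited file of both batches. They were 33 of the 6603 genes found in all 12 files of batch 1 and of the 7223 found in all 12 files of batch 2. RefSeq holds 77 protein-coding symbols of this form. Of the 33 members 32 carry such a symbol, and MRPS36 stands in RefSeq as KGD4. The other RefSeq symbols were not analysed. The study used TT-seq, which reads RNA made during a short labelling pulse, in DLD1 cells, an established human colorectal adenocarcinoma line. The 24 libraries came from 3 lines in 2 batches, with 2 libraries in each of 12 groups. In batch 1, cells received dTAG13 or its vehicle DMSO for 3 h. The INTS11 line is INTS11-dTAG, the INTS8 line is INTS8-dTAG, and the N211del line is INTS8-dTAG that also carries INTS8-N211del. In batch 2, the INTS11 line and the N211del line were given dTAG13 for 0, 1 or 3 h. In every line dTAG13 was directed at a tagged subunit, INTS11 in the INTS11 line and INTS8 in the other lines, and the N211del line carried the INTS8-N211del protein besides. dTAG13 is a small molecule that brings tagged proteins to a ubiquitin ligase for degradation. No untagged line was given dTAG13 and batch 2 had no vehicle, so an effect of dTAG13 itself cannot be told apart from loss of the subunit. The labels do not say how many clones each line stands for.

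The mitochondrial ribosome makes the few membrane proteins of the respiratory chain that mitochondrial DNA encodes. Its RNA comes from mitochondrial DNA, while all of its proteins are encoded in the nucleus, made in the cytosol and imported. Some of these proteins have counterparts in bacterial ribosomes and the rest are specific to mitochondria. Integrator acts on RNA polymerase II soon after initiation. Its INTS11 subunit is an endonuclease that cuts nascent RNA, and its INTS8 subunit helps to hold a PP2A phosphatase in the complex. The comparisons ask how transcription of the ribosomal protein genes differed after loss of INTS11, after loss of INTS8, and after loss of INTS8 in cells that carried INTS8-N211del.

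The deposited values were headed FPKM but behaved as signal per kilobase of gene, introns included. Batch 1 values showed no scaling between libraries and batch 2 values carried 1 factor per library between 0.565 and 0.753. In whole-number units, a library of batch 1 held between 5517093 and 8119822 and one of batch 2 between 8709265 and 11266572. A shift of all genes between libraries could therefore not be told apart from depth or scaling, and in such bulk samples fewer cells and less RNA per cell cannot be told apart either. For this reason counts over the 33 members in each comparison are given as deposited and again after every library was centred on its median gene. In 7 of 12 groups the 2 libraries differed by no more than about the sampling noise, and counts with each such pair taken as 1 sample are given where they differ by over 1.5 times. Of 12 colorectal epithelial markers, 9 were listed in batch 1 and 10 in batch 2. Those of batch 2 included KRT20 at no more than 0.126, and CDX1 and VIL1 were listed in neither batch. Of 8 markers of other cells, 0 were listed in batch 1, and in batch 2 only COL1A1 was listed, at up to 0.318. INTS11, INTS8 and the phosphatase gene PPP2CA were not analysed here, so the loss of the subunits was not checked in these values.

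The proteins of 22 of the 33 genes belong to the large ribosomal subunit and those of 10 to the small subunit. The product of MRPS36 is now known as a subunit of the oxoglutarate dehydrogenase complex. A bacterial counterpart is known for 17 of the proteins and 13 are specific to mitochondria. The genes lie on 15 chromosomes and span between 1453 and 111541 bp, with a median of 12323 bp against 34075 bp for the genes tested in batch 1. All 33 passed the minimum mean level of 0.1. Their mean level per kilobase had a median of 26.5 in batch 1 and 24.7 in batch 2, against 16.7 and 15.3 for all genes tested. In batch 1, 27 members lay above the median gene, and in batch 2, 25 did. MRPL17, a protein of the large subunit, had the highest mean in both batches, at 103 and 122. MRPL45, which lies at the exit of the ribosome's peptide tunnel, had the lowest, at 0.746 and 0.882. MRPL45 has processed and duplicated copies in the genome, and how the authors shared reads among them was not stated. MRPL33 ranged from 39.7 to 61.0 over the libraries of batch 1 and from 53.0 to 63.7 over those of batch 2. MRPL36, whose locus meets that of NDUFS6 in RefSeq, ranged from 38.5 to 57.1 in batch 1 and from 49.2 to 70.7 in batch 2. A member's value in a library corresponded to between 12 and 2978 units, with a median of 363.5, so counting error differed between members. Its part in the changes of each member was not tested.

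In INTS11 cells a group of members was lower after dTAG13 and few were higher. Fold changes below are log2 differences with standard errors, on log2(value + 0.1), from a limma fit over all genes of a batch, and a gene was called at a Benjamini-Hochberg adjusted p under 0.05. In batch 1, 9 of 33 members were lower and 1 was higher in INTS11 cells after 3 h of dTAG13 than with DMSO, while 19.8% of all genes tested were lower and 19.4% were higher. After centring, 8 members were lower and 1 higher, against 24.5% and 26.1% of all genes. In batch 2, after 1 h, 10 members were lower and 3 higher than at 0 h, against 9.86% and 46.0% of all genes, and after centring 18 were lower and 2 higher, against 30.3% and 29.0%. After 3 h, 10 were lower and 4 higher, against 19.3% and 36.0%, and after centring 13 were lower and 2 higher, against 28.9% and 31.8%. The median member changed by −0.15 in batch 1 and by −0.01 and −0.05 at 1 and 3 h in batch 2. The median of all genes tested was −0.03, 0.16 and 0.08 in the same comparisons. The share of members called lower as deposited was 27.3% in batch 1 and 30.3% at both times in batch 2. After centring the members' share in batch 1 was 24.2%, no larger than the 24.5% of all genes. With agreeing libraries taken as 1 sample, 5 members were called in batch 1 and 9 at 3 h in batch 2. With the trend of all genes with length removed, 20 members were lower and 2 higher at 1 h, against 31.8% and 28.8% of 6761 genes. At 3 h 22 were lower and 2 higher, against 31.6% and 29.6%. In batch 1 it gave 9 lower and 1 higher, against 26.0% and 26.5% of all genes.

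**Figure D1:**
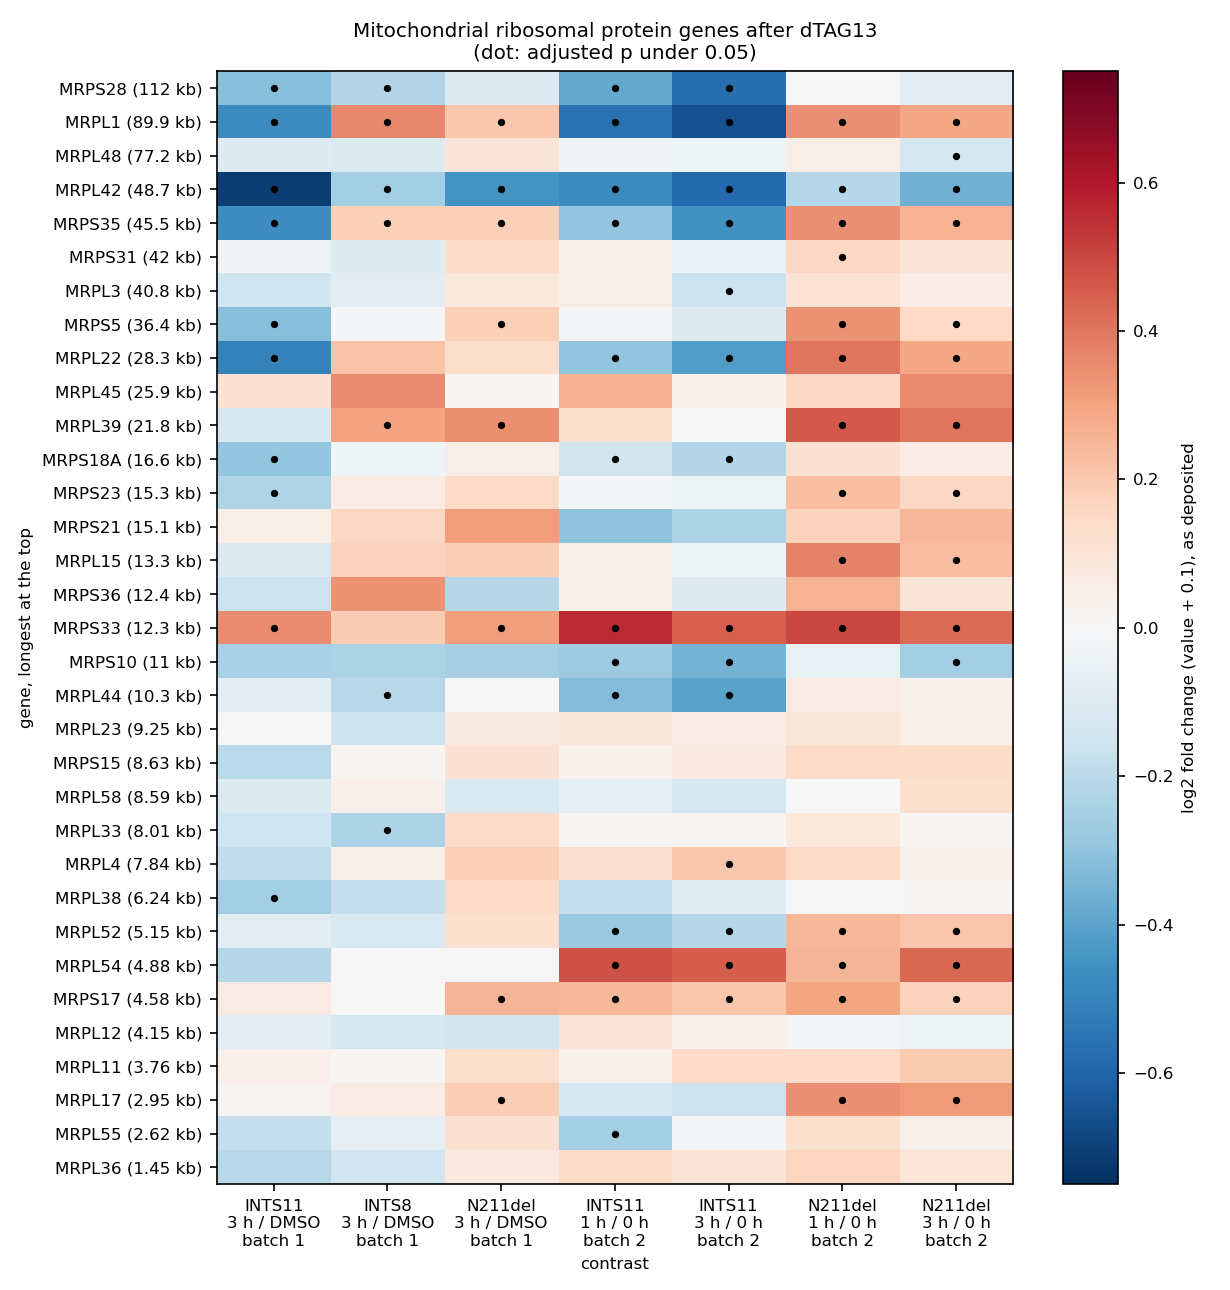
Log2 fold change after dTAG13 for each of the 33 genes (rows, longest gene at the top) in 7 comparisons (columns), with a dot where the gene was called at an adjusted p under 0.05. MRPL42 carries a dot in every column, and the INTS11 columns hold most of the lower values among the longer genes.

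MRPL1, MRPL22 and MRPS35 were the members whose response to dTAG13 differed most between the INTS11 line and the other lines. MRPL1 and MRPL22 are large-subunit proteins with bacterial counterparts, and MRPL22 lines the tunnel through which the new peptide leaves. MRPS35 is a small-subunit protein specific to mitochondria. The 250 bases before the RefSeq start of each gene are shown on the gene's strand for these genes and for MRPL42, MRPS33 and MRPL54, which moved the same way in both lines of batch 2. They come from RefSeq on GRCh38.p14, whereas the submitters' processing notes name hg19. Capitals mark matches to the letters CCGGAAG (ETS), GCATGCGC (NRF1) or AAGATGGC (YY1) on either strand.
MRPL1, chr4:77862580-77862829, plus strand: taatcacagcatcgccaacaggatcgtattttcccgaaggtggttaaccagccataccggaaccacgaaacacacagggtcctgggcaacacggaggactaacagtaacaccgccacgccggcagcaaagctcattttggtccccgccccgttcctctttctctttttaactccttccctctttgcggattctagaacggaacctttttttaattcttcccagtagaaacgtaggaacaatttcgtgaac
MRPL22, chr5:154940823-154941072, plus strand: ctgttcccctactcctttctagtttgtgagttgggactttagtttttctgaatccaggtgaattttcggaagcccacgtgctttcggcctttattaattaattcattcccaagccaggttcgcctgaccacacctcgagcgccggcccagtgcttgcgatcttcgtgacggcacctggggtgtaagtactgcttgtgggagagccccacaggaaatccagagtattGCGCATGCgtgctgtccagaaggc
MRPS35, chr12:27710582-27710831, plus strand: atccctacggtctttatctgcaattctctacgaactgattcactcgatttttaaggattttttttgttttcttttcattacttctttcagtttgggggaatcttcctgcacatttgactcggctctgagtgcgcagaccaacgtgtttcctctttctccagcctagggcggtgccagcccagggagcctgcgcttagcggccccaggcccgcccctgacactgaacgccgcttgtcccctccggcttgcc
MRPL42, chr12:93467264-93467513, plus strand: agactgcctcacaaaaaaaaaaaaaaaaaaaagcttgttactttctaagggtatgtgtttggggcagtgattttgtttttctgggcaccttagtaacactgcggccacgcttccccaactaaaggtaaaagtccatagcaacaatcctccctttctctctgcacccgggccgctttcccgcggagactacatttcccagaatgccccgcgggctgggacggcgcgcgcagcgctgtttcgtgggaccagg
MRPS33, chr7:141014953-141015202, minus strand: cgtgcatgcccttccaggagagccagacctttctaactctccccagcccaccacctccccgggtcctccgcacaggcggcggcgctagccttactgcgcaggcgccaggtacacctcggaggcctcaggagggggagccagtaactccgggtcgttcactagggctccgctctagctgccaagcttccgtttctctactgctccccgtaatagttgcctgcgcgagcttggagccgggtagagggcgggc
MRPL54, chr19:3762432-3762681, plus strand: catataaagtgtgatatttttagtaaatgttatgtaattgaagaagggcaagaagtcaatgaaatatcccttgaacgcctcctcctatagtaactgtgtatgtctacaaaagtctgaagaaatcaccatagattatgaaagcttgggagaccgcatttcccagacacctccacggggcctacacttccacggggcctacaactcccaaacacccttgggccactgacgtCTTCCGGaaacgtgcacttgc
Among these windows the MRPL22 window held the NRF1 letters and the MRPL54 window the ETS letters, and the windows of MRPL1, MRPS35, MRPL42 and MRPS33 held none of the 3 motifs.

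Of the 33 members, 30 had such a window, and 3 of these had more than 1, of which the first was used. MRPL15, MRPL23 and MRPS28 had none in the table used. ETS letters stood in 11 of 30 member windows (36.7%), against 14.1% of the windows of 5623 genes tested and 8.82% of 27305 windows of all genes. NRF1 letters stood in 3 (10%), against 4.32% and 2.81%, and YY1 letters in 2 (6.67%), against 1.39% and 1.37%. CCAAT, in either strand, stood in 5 (16.7%), against 34.9% and 33.0%, and GGGCGG in 18 (60%), against 68.9% and 42.3%. NRF1 and the ETS factor GABP are known as activators of nuclear genes for mitochondrial proteins. A match describes letters only, and no binding data were analysed here.

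MRPL1 had 15.5 and 14.5 in INTS11 cells after dTAG13 in batch 1, against 20.6 and 21.2 with DMSO. In batch 2 INTS11 cells it had 14.9 and 14.5 at 0 h, 10.1 and 9.76 at 1 h, and 9.54 and 9.10 at 3 h. In N211del cells it went the other way, with 14.6 and 15.2 at 0 h, 18.8 and 19.1 at 1 h, and 18.1 and 18.3 at 3 h. As deposited, the libraries after dTAG13 lay wholly apart from those without it in each of these comparisons. Here and below, such separation of 2 libraries from 2 is only a description, and its share over all genes was not counted. The log2 change in INTS11 cells was −0.48 ± 0.081 in batch 1 (adjusted p = 8.26e-05), −0.56 at 1 h (adjusted p = 5.21e-06) and −0.65 at 3 h (adjusted p = 3.15e-06). These falls held in all 21 alternative settings.

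In INTS8 cells MRPL1 had 25.1 and 23.6 after dTAG13, against 18.7 and 19.1 with DMSO, a rise of 0.36 (adjusted p = 0.000629) that stayed at 0.26 after centring. In N211del cells of batch 1 it had 13.6 and 15.4 after dTAG13, against 12.7 and 12.5 with DMSO. That difference of 0.20 (adjusted p = 0.0374) was smaller than the shift of the median gene and was −0.06 after centring. In batch 2 the N211del rises of 0.34 and 0.29 became −0.01, not called, at 1 h and 0.09, still called, at 3 h after centring. Relative to the median gene, MRPL1 was thus apart in INTS11 and INTS8 cells and within 0.1 of it in N211del cells.

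MRPL22 had 14.2 and 14.5 in INTS11 cells after dTAG13 in batch 1, against 20.3 and 20.5 with DMSO, a change of −0.51 ± 0.1 (adjusted p = 0.000543). In batch 2 INTS11 cells it had 15.7 and 15.0 at 0 h, 12.4 and 12.6 at 1 h, and 11.3 and 11.6 at 3 h, with changes of −0.29 and −0.42. The libraries after dTAG13 were all below those without it. In INTS8 cells MRPL22 had 22.4 and 21.7 after dTAG13, against 18.3 and 19.7 with DMSO, a difference of 0.21 that was not called although the libraries did not overlap. In N211del cells of batch 1 it had 12.7 and 16.8, against 12.9 and 13.8, and these libraries overlapped. In batch 2 N211del cells it had 15.0 and 16.9 at 0 h, 21.3 and 20.9 at 1 h, and 19.8 and 19.2 at 3 h. The rises of 0.40 and 0.29 there were 0.05 and 0.10 after centring, and neither was then called.

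MRPS35 had 18.8 in both INTS11 libraries after dTAG13 in batch 1, against 25.5 and 26.5 with DMSO, a change of −0.47 ± 0.072 (adjusted p = 3.17e-05). In batch 2 INTS11 cells it had 23.5 and 22.3 at 0 h, 19.0 and 18.2 at 1 h, and 17.1 and 16.3 at 3 h. The changes were −0.30 and −0.45, and no library after dTAG13 reached the lower one without it. In INTS8 cells it had 30.1 and 28.9 after dTAG13, against 25.9 and 26.3 with DMSO, and in N211del cells of batch 1 21.0 and 22.3, against 18.9 and 19.4. Both differences were 0.18 (adjusted p = 0.0438 and 0.0433), and after centring they were 0.07 and −0.09 and not called. In batch 2 N211del cells it had 20.9 and 22.8 at 0 h, 27.5 and 28.0 at 1 h, and 25.9 and 26.6 at 3 h, and the rises of 0.34 and 0.26 were −0.01 and 0.07 after centring. The INTS11 falls of MRPL22 and MRPS35 also held in all 21 alternative settings.

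**Figure D2:**
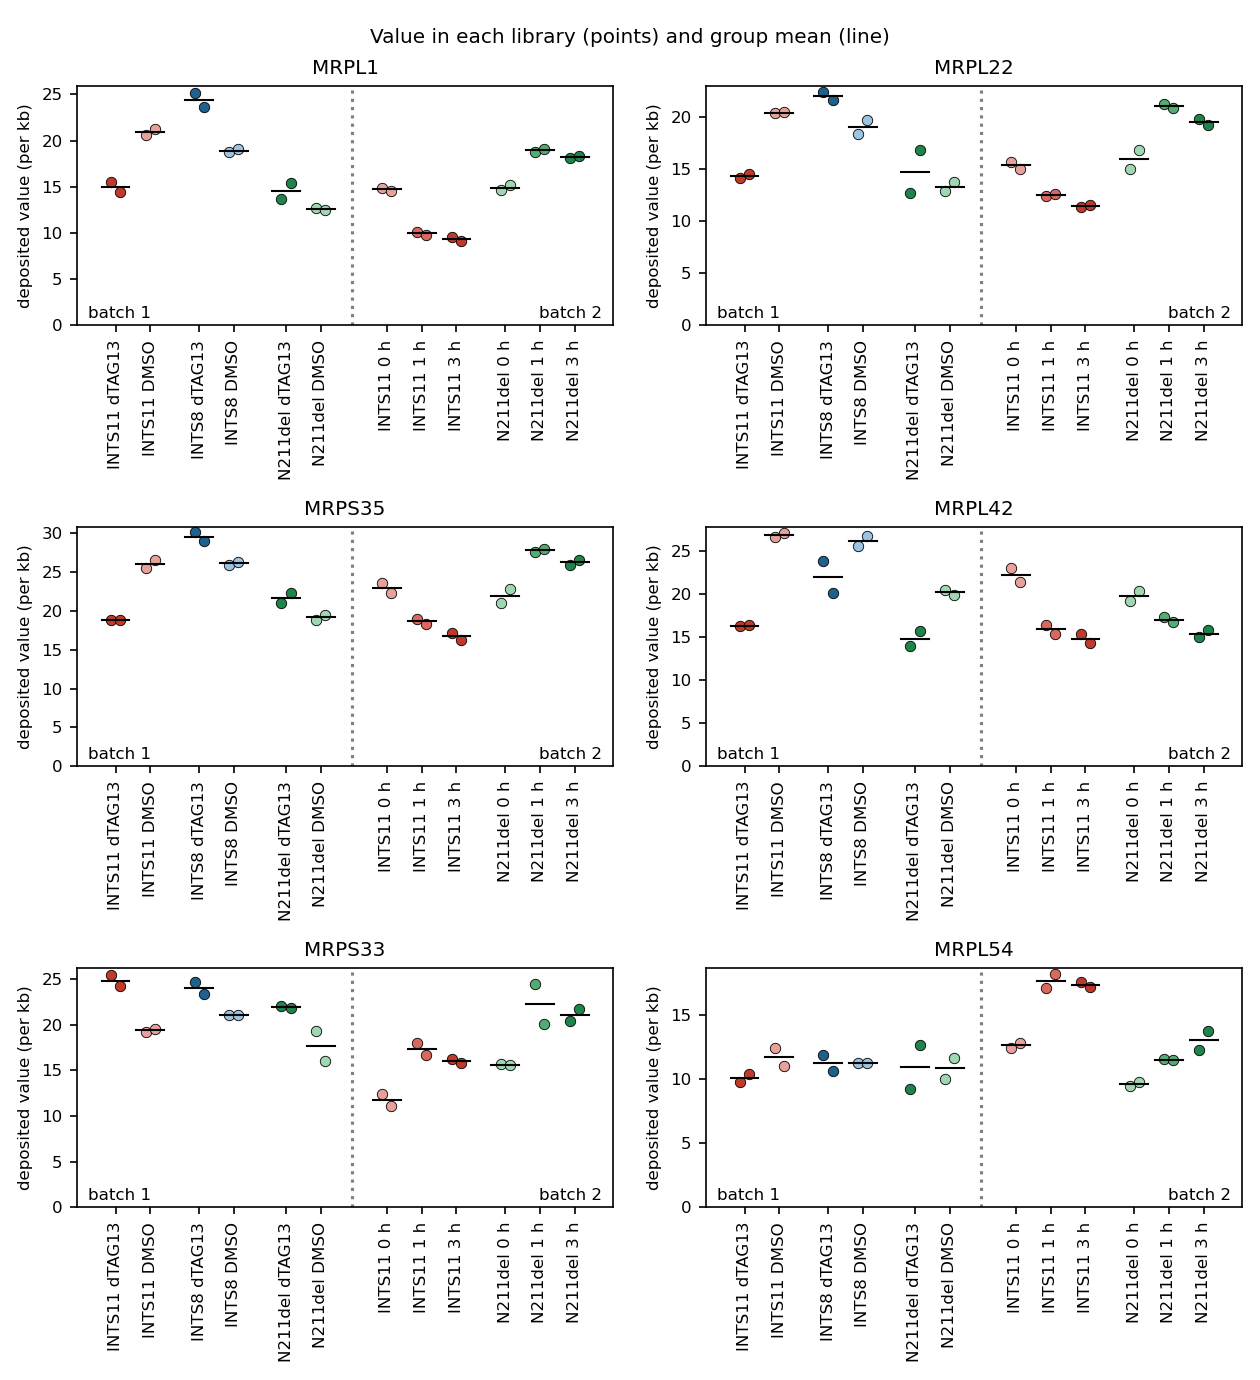
Deposited level per kilobase of 6 genes in each of the 24 libraries (points), by line and treatment, with the mean of each group as a line. MRPL1, MRPL22 and MRPS35 lie lower after dTAG13 in INTS11 cells of both batches and higher after it in N211del cells of batch 2 as deposited, where centring leaves between −0.01 and 0.10.

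In INTS8 cells few members differed as deposited. After 3 h of dTAG13, 3 members were higher and 4 lower than with DMSO, against 34.6% and 21.0% of all genes, and after centring 1 was higher and 12 lower, against 30.7% and 36.4%. MRPL1 (0.36), MRPL39 (0.30) and MRPS35 (0.18) were the higher ones as deposited. MRPL42 (−0.26), MRPL33 (−0.24), MRPS28 (−0.22) and MRPL44 (−0.21) were the lower ones, and these 4 were also called after centring. The count was 2 without INTS8 dTAG13 replicate 2, 4 and 3 without INTS8 DMSO replicates 1 and 2, and 11 without either N211del dTAG13 library, and with agreeing libraries taken as 1 sample 1 was left.

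In N211del cells more members were higher than lower as deposited, and more were lower than higher after centring. In batch 1, 7 were higher and 1 lower after 3 h of dTAG13 than with DMSO, against 48.5% and 7.10% of all genes, and after centring 0 were higher and 11 lower, against 26.9% and 35.2%. In batch 2, 13 were higher and 1 lower at 1 h, against 66.0% and 4.92%, and after centring 1 and 14, against 29.5% and 36.1%. At 3 h, 12 were higher and 3 lower, against 49.7% and 13.8%, and after centring 4 and 11, against 30.9% and 35.1%. With the trend of all genes with level removed in place of centring, 7 members were higher and 5 lower at 3 h, against 2063 and 2374 of 6950 genes. The median of all genes tested was itself 0.21, 0.31 and 0.18, and that of the members 0.13, 0.15 and 0.12. The members as a group thus lay slightly below the median gene in this line. In batch 1 the count was 3 without either N211del DMSO library and 5 without N211del dTAG13 replicate 2, INTS11 dTAG13 replicate 1 or either INTS8 DMSO library. It was 13 without N211del dTAG13 replicate 1, and with agreeing libraries taken as 1 sample it was 3 in batch 1 and 9 at 3 h in batch 2.

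**Figure D3:**
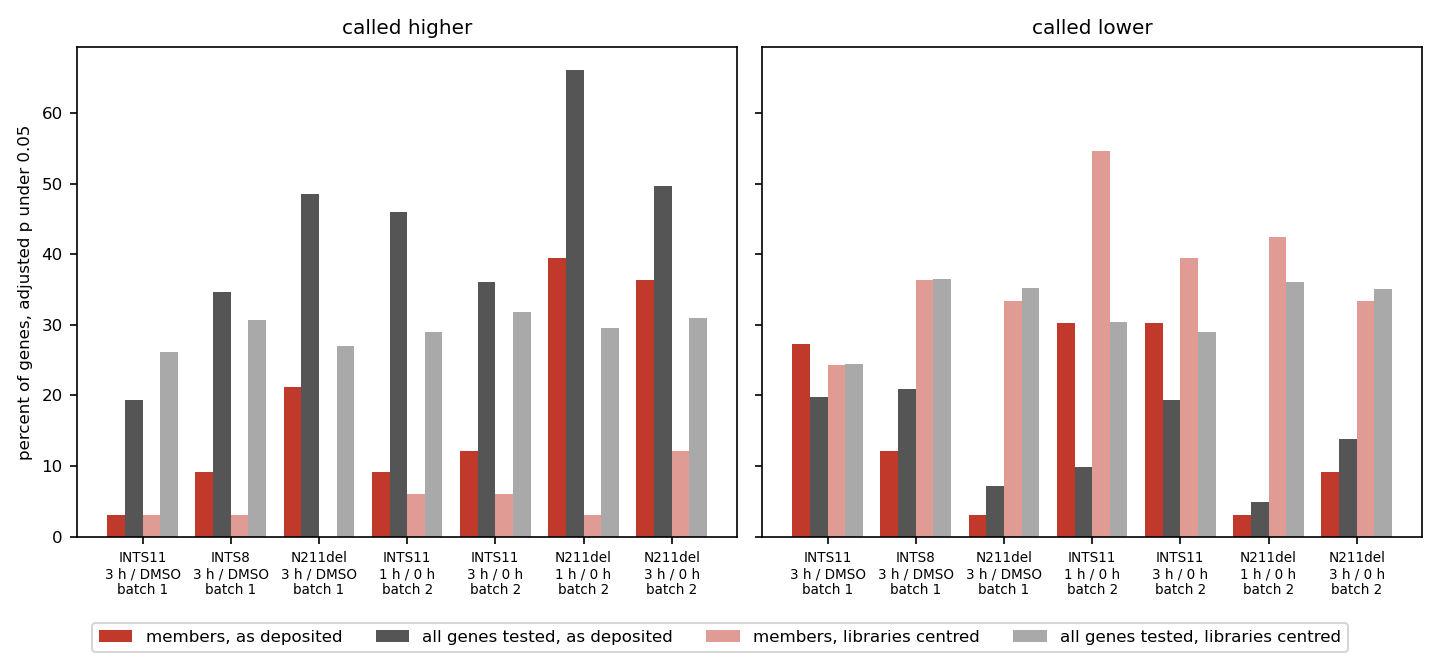
Bars give the percent of the 33 members (red) and of all genes tested (grey) called higher or lower in each of 7 comparisons, as deposited (full colour) and after each library was centred on its median gene (pale). As deposited, 13 of 33 members were higher in N211del cells at 1 h, against 66.0% of all genes, and after centring 1 was.

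The difference between the responses of 2 lines was itself tested, and the counts that follow are of members whose difference was called. These differences reuse the libraries of the single-line comparisons above. As deposited the members' shares called above 0 were near or below those of all genes. They were 18.2% and 30.3% against INTS11 cells in batch 1, and 42.4% and 39.4% at 1 and 3 h in batch 2. In batch 1 the response of INTS8 cells minus that of INTS11 cells was called above 0 for 6 members and below 0 for 0, against 19.4% and 6.00% of all genes, and after centring for 4 and 2, against 17.1% and 20.9%. The response of N211del cells minus that of INTS11 cells was called above 0 for 10 members and below 0 for 0, against 43.7% and 4.80%, and after centring for 4 and 2, against 15.1% and 18.8%. At an unadjusted p under 0.05, limma gave 9 and 13 members past that p above 0 and 0 past it below 0 in the same comparisons. In batch 2 the N211del minus INTS11 difference was called above 0 for 14 members and below 0 for 1 at 1 h, against 39.3% and 9.24%, and after centring for 7 and 3, against 22.3% and 25.8%. At 3 h it was called above 0 for 13 and below 0 for 0, against 35.8% and 15.2%, and after centring for 8 and 1, against 25.2% and 28.7%. At an unadjusted p under 0.05, 15 passed above 0 and 0 below at 3 h. In batch 1 the N211del minus INTS11 count was 19 without N211del dTAG13 replicate 1. With agreeing libraries taken as 1 sample the counts at 3 h were 3 and 4 in batch 1 and 7 in batch 2.

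MRPL1, MRPL22 and MRPS35 were the members that kept a higher response in N211del than in INTS11 cells at 3 h in both batches also after centring. For MRPL1 the difference was 0.84 for INTS8 minus INTS11, 0.68 for N211del minus INTS11 in batch 1, and 0.90 and 0.94 at 1 and 3 h in batch 2. For MRPL22 the same differences were 0.72, 0.64, 0.70 and 0.71. For MRPS35 they were 0.64, 0.64, 0.64 and 0.72. After centring they were 0.70, 0.39, 0.71 and 0.80 for MRPL1, and 0.58, 0.35, 0.50 and 0.57 for MRPL22. MRPS35 then had 0.50, 0.35, 0.45 and 0.57. All of these differences kept their direction and call in the 21 alternative settings.

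The N211del response minus the INTS8 response was called for 0 members by limma as deposited, with 4 past an unadjusted p under 0.05 above 0 and 1 below 0, while 9.04% of all genes were called above 0 and 2.01% below. After centring MRPL1 (−0.32) and MRPL42 (−0.34) were called below 0 and 0 members above, against 7.13% and 4.36% of all genes. Without N211del dTAG13 replicate 1 the count as deposited was 8. The lack of calls does not show that the INTS8-N211del protein left these genes' response as it was.

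MRPL42 was lower after dTAG13 in every line and at every time, and was the only member called in the same direction in all 7 comparisons as deposited. Its protein is a mitochondria-specific part of the large subunit. In batch 1 it had 16.3 in both INTS11 libraries after dTAG13, against 26.5 and 27.1 with DMSO, and 23.8 and 20.0 in INTS8 cells, against 25.5 and 26.7. N211del cells had 13.9 and 15.7 after dTAG13, against 20.5 and 19.9 with DMSO. None of these groups overlapped, and the changes were −0.71 (adjusted p = 1.13e-06), −0.26 (adjusted p = 0.0138) and −0.45 (adjusted p = 0.000128). In batch 2 INTS11 cells it had 23.0 and 21.4 at 0 h, 16.4 and 15.4 at 1 h, and 15.3 and 14.3 at 3 h. N211del cells had 19.1 and 20.4 at 0 h, 17.3 and 16.7 at 1 h, and 15.0 and 15.8 at 3 h. The changes at 1 and 3 h were −0.48 and −0.58 in INTS11 cells and −0.22 and −0.36 in N211del cells. MRPL42 stayed lower after centring in all 7 comparisons, at −0.68, −0.36 and −0.71 in the INTS11, INTS8 and N211del cells of batch 1. In INTS8 cells its call was kept in 18 of 21 alternative settings. Without INTS8 dTAG13 replicate 2, whose value was the lower one, the INTS8 change was −0.13 (adjusted p = 0.266). It was also not called without INTS8 DMSO replicate 2 or with agreeing libraries taken as 1 sample.

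MRPS28, a small-subunit protein, was lower in INTS11 cells and in INTS8 cells. It had 16.1 and 16.4 in INTS11 cells after dTAG13, against 20.1 and 20.6 with DMSO, and 18.2 and 16.4 in INTS8 cells, against 20.2 and 20.0. In batch 2 INTS11 cells it had 15.2 and 14.3 at 0 h, 11.8 and 10.7 at 1 h, and 10.2 and 9.71 at 3 h. The libraries after dTAG13 were all below those without it, with changes of −0.32, −0.22, −0.38 and −0.57. RefSeq also holds a read-through gene of TPD52 and MRPS28, so part of the MRPS28 signal may be shared with it. MRPL44, which has an RNase III-like fold, was lower in INTS8 cells (−0.21) and in INTS11 cells of batch 2 (−0.33 and −0.40), and had 27.2 and 28.1 in INTS11 cells of batch 1 after dTAG13, against 29.5 and 28.9 with DMSO, which was not called. MRPS10, a small-subunit protein with a bacterial counterpart, fell in INTS11 cells of batch 2 (−0.27 and −0.36) and in N211del cells at 3 h (−0.25). Without replicate 1 of the N211del cells at 3 h the MRPS10 change there was −0.14, and neither without it nor without replicate 2 at 0 h was it called. MRPL48, a large-subunit protein, fell by 0.13 in N211del cells at 3 h, where it had 9.57 and 9.89 at 0 h and 9.14 and 8.61 at 3 h.

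MRPS33 and MRPL54 stood out on the higher side. MRPS33 is a mitochondria-specific protein of the small subunit and had 25.5 and 24.2 in INTS11 cells after dTAG13 in batch 1, against 19.2 and 19.6 with DMSO. In N211del cells of batch 1 it had 22.0 and 21.8, against 19.3 and 16.1, and in INTS8 cells 24.7 and 23.4, against 21.1 and 21.0. The groups did not overlap in any of the 3 lines. The changes were 0.35 (adjusted p = 0.00188) in INTS11 cells, 0.31 in N211del cells, and 0.19, not called, in INTS8 cells. In batch 2 INTS11 cells it had 12.5 and 11.1 at 0 h, 18.0 and 16.6 at 1 h, and 16.3 and 15.8 at 3 h. N211del cells had 15.7 and 15.6 at 0 h, 24.4 and 20.1 at 1 h, and 20.4 and 21.7 at 3 h. The rises were 0.56 and 0.45 in INTS11 cells and 0.50 and 0.43 in N211del cells. After centring the INTS11 rises were 0.39 in batch 1 and 0.40 and 0.39 in batch 2, all called, while in N211del cells the 3 h rise of batch 2 was still called and the others, 0.05 in batch 1 and 0.15 at 1 h, were not.

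MRPL54, a large-subunit protein specific to mitochondria, was higher in batch 2 and not in batch 1. In INTS11 cells it had 12.5 and 12.9 at 0 h, 17.1 and 18.3 at 1 h, and 17.6 and 17.2 at 3 h, with rises of 0.48 and 0.46. In N211del cells it had 9.52 and 9.78 at 0 h, 11.6 and 11.5 at 1 h, and 12.3 and 13.8 at 3 h, with rises of 0.26 and 0.43, the first of which was −0.09 after centring. In batch 1 INTS11 cells it had 9.83 and 10.4 after dTAG13, against 12.5 and 11.1 with DMSO, a difference of −0.21 that was not called. INTS8 cells had 11.9 and 10.6, against 11.3 and 11.3, and N211del cells 9.21 and 12.7, against 10.0 and 11.7, and in both of these lines the libraries overlapped. The batches differ in their control, DMSO in batch 1 and 0 h in batch 2.

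MRPL39, a large-subunit protein specific to mitochondria, was higher in INTS8 and N211del cells. It had 25.7 and 27.2 in INTS8 cells after dTAG13, against 20.0 and 23.1 with DMSO, and 21.5 and 20.9 in N211del cells of batch 1, against 16.7 and 16.4. In batch 2 N211del cells it had 20.4 and 19.7 at 0 h, 27.3 and 27.9 at 1 h, and 26.1 and 26.8 at 3 h. These groups did not overlap, and the rises were 0.30, 0.35, 0.46 and 0.40, of which the batch 2 ones were still called after centring, at 0.11 and 0.20. In INTS11 cells the differences of −0.12 in batch 1 and 0.00 at 3 h in batch 2 were not called. MRPL52, a large-subunit protein, was lower in INTS11 cells (−0.28 and −0.21 at 1 and 3 h) and higher in N211del cells (0.25 and 0.21) in batch 2. The MRPL52 rises were −0.10 and 0.01 after centring, whereas its INTS11 falls were still called.

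MRPS5, a small-subunit protein near the entry of the messenger RNA, had 23.8 and 25.1 in INTS11 cells of batch 1 after dTAG13, against 30.3 and 30.6 with DMSO, a change of −0.32. In N211del cells it was 0.18 higher as deposited in batch 1 and −0.09, not called, after centring. MRPS18A, which lies in the large subunit despite its name and meets RSPH9 in RefSeq, had 26.4 and 24.5 in INTS11 cells of batch 1 after dTAG13, against 29.0 and 33.4 with DMSO, a change of −0.29. MRPS23 of the small subunit had 21.9 and 19.8 in the same cells, against 25.1 and 23.8, a change of −0.23 that was −0.20, not called, after centring. The MRPS23 call was kept in 14 of 21 alternative settings. In all 3 genes the INTS11 libraries of batch 1 after dTAG13 lay below those with DMSO. In batch 2 INTS11 cells MRPS18A was called lower (−0.14 and −0.22 at 1 and 3 h), and MRPS5 and MRPS23 were not called as deposited. MRPS5 had 22.8 and 22.4 at 0 h and 20.9 and 21.4 at 3 h, a fall that was called after centring. MRPS23 had 24.5 and 24.3 at 0 h and 23.4 and 24.4 at 3 h. MRPS17 of the small subunit was higher in N211del cells of batch 1 (0.25) and batch 2 (0.30 and 0.17 at 1 and 3 h). It was also higher in INTS11 cells of batch 2 (0.25 and 0.21), and none of these rises was called after centring. MRPL17 was 0.19, 0.34 and 0.32 higher in N211del cells as deposited and −0.08, −0.01 and 0.12, not called, after centring.

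In the 7 comparisons of dTAG13 with its control MRPL11, MRPL36, MRPL45, MRPS15, MRPS21 and MRPS36 were not called by limma as deposited or after centring. MRPL12, MRPL23 and MRPL58 were not called as deposited and were called lower in N211del cells of batch 1 after centring, at −0.40, −0.19 and −0.38. MRPL12 is the counterpart of the bacterial stalk protein and MRPL58 releases peptides from stalled ribosomes. MRPS21 ranged from 1.85 to 3.83 in batch 1 and from 1.84 to 3.53 in batch 2, and MRPS36 from 1.46 to 2.51 in batch 1, so both were among the least transcribed members per kilobase.

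Between 1 and 3 h few members moved. In INTS11 cells 1 member was higher and 1 lower at 3 h than at 1 h, against 0.475% and 15.1% of all genes, and after centring 0 and 0, against 1.55% and 1.21%. They were MRPL55 (0.24) and MRPL3 (−0.20), named here after their values were seen. In N211del cells 1 was higher and 2 lower, against 2.20% and 35.0%, and after centring 2 and 0, against 11.6% and 7.63%. As deposited these were MRPL54 (0.17), MRPL48 (−0.18) and MRPS5 (−0.19). Leaving out single libraries gave 0 to 3 calls in INTS11 cells, with 0 without INTS11 1 h replicate 1 or either INTS11 3 h library and 1 without an INTS11 0 h or N211del 1 h library. It gave 1 to 4 in N211del cells, with 1 without replicate 2 at 1 h or at 3 h.

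Set beside genes of like level, the members lay slightly low in most comparisons. All genes tested were divided into 10 bins of equal size by mean level, and each member was read against the median of its bin. In batch 1 the median member lay −0.08 from its bin in INTS11 cells, −0.04 in INTS8 cells and −0.04 in N211del cells, with 24, 19 and 24 of 33 members below. In batch 2 it lay −0.16 and −0.10 away in INTS11 cells at 1 and 3 h, with 25 and 23 below, and −0.06 and −0.02 in N211del cells, with 22 and 17 below. Between 1 and 3 h the median member lay 0.01 above its bin in INTS11 cells and 0.06 above it in N211del cells. With DMSO it lay 0.10 and 0.11 above for N211del against INTS8 and INTS11 cells, and 0 away at 0 h in batch 2. The differences between responses went both ways, from −0.05 to 0.08. These are descriptions with no test.

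The falls in INTS11 cells at 3 h lay more among the longer members than among the shorter ones. Of the 11 longest members, of at least 21836 bp, 6 were lower and 0 higher in INTS11 cells of batch 1, while of the 11 shortest, of at most 8011 bp, 1 was lower and 0 higher. At 3 h in batch 2 the counts were 6 lower and 0 higher among the longest and 1 lower and 3 higher among the shortest. At 1 h the longest, middle and shortest 11 had 5, 3 and 2 lower. After centring the longest had 7, 9 and 8 lower in batch 1 and at 1 and 3 h, and the shortest 0, 5 and 2. Of all genes, 19.8%, 9.86% and 19.3% were lower as deposited in these comparisons, and 24.5%, 30.3% and 28.9% after centring. Over the 33 members the rank correlation of the log2 change with gene length was −0.37 in batch 1 and −0.57 at 3 h in batch 2, against −0.08 and −0.28 over all genes. Between 1 and 3 h in INTS11 cells it was −0.66, against −0.44. For the N211del minus INTS11 difference at 3 h in batch 2 it was 0.49, against 0.20, and 8 of the 11 longest members were called above 0, compared with 2 of the 11 shortest. After centring these counts were 5 and 2. Of all genes, 35.8% were called above 0 as deposited and 25.2% after centring. The points of each correlation share the same libraries and the same scaling by length, and no test was made. At a like level per kilobase a longer gene has more units, so a change is called more easily in it. Among the longest, MRPL1 had 1121 to 2326 units in a library and MRPS28 1332 to 2841, but MRPL45 12 to 55. Among the shortest, MRPL36 had 56 to 155 and MRPL55 62 to 163, but MRPL33 318 to 778. The part of this in the counts of calls was not tested.

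**Figure D4:**
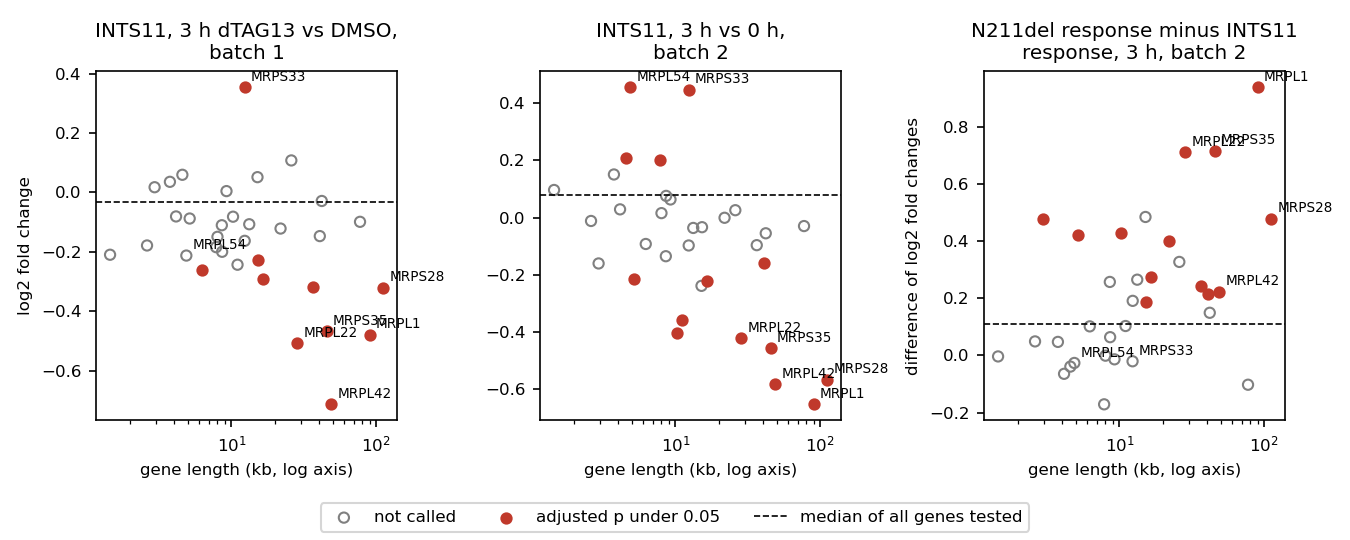
Log2 change of the 33 members against gene length in kb (log axis), filled where called, with the median of all genes as a dashed line, for INTS11 cells in batch 1, INTS11 cells at 3 h in batch 2, and the N211del minus INTS11 difference at 3 h in batch 2. The members' rank correlations with length are −0.37, −0.57 and 0.49.

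The batches share no library. In INTS11 cells 9 members were lower in batch 1 and 10 at 3 h in batch 2, and 6 were lower in both, which is 66.7% and 60% of the lists, against 60.1% and 58.2% for all genes. The 6 were MRPL1, MRPL22, MRPL42, MRPS18A, MRPS28 and MRPS35, and MRPS33 was higher in both. In N211del cells 7 members were higher in batch 1 and 12 in batch 2, and 7 in both, or 100% and 58.3% of the lists, against 86.5% and 82.8% for all genes; after centring 0 and 4 were higher. Lower in both after centring were 10 of 11 and 11 members, MRPL42 and MRPS28 among them. That is 90.9% of each list, against 81.2% and 77.4% for all genes. The log2 changes of the 33 members correlated between batches with r = 0.66 in INTS11 cells and 0.68 in N211del cells, against 0.83 and 0.91 over 6569 genes. For the difference between these lines r was 0.51, against 0.68, with 7 members called above 0 in both of the 10 and 13 called. These are 70% and 53.8% of the lists, against 64.0% and 74.9% for all genes.

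**Figure D5:**
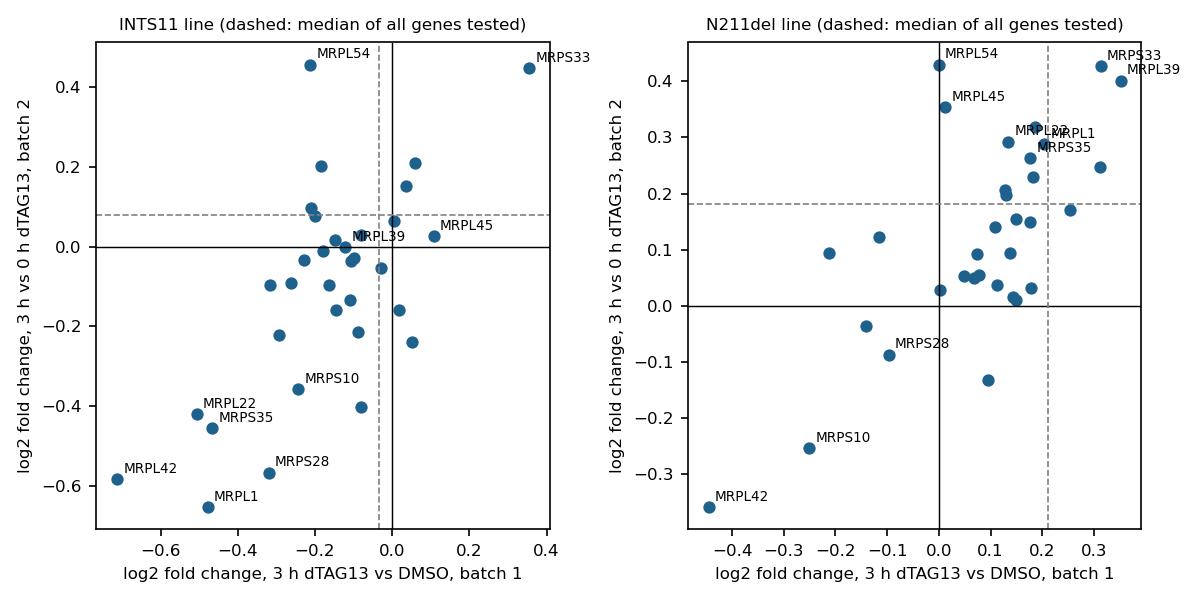
Log2 change at 3 h in batch 2 (vertical axis) against batch 1 (horizontal axis) for INTS11 cells and N211del cells, with 1 point per member and dashed lines at the median of all genes tested. The members' correlations are 0.66 and 0.68, and MRPL42 is lower in both batches of both lines.

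Before dTAG13 the lines already differed, but as deposited no larger share of members than of all genes was called. The difference of N211del from INTS11 cells also correlated little between the batches. With DMSO, N211del cells were lower than INTS8 cells in 18 members and higher in 0, against 58.7% and 5.03% of all genes (19 and 0 at an unadjusted p under 0.05 by limma), and after centring lower in 6 and higher in 7, against 26.3% and 26.3%. N211del cells were lower than INTS11 cells in 13 and higher in 2 with DMSO, against 45.9% and 19.7%, and after centring lower in 10 and higher in 8, against 31.4% and 36.8%. At 0 h in batch 2 N211del cells were lower than INTS11 cells in 7 and higher in 12, against 31.6% and 38.4%, and after centring lower in 9 and higher in 10, against 35.5% and 36.7%. For MRPL1 the log2 difference of N211del from INTS11 cells was −0.73 with DMSO and 0.02, not called, at 0 h in batch 2. The same comparison gave −0.61 and 0.05 for MRPL22 and −0.44 and −0.07 for MRPS35, and as deposited the batch 2 differences were not called. With DMSO these differences were −0.52, −0.40 and −0.23 after centring, and as small as −0.38, −0.37 and −0.18 in the 21 alternative settings. MRPS35 was called lower at 0 h after centring, at −0.11, and MRPL22 was called higher there, at 0.13, without N211del 0 h replicate 1. MRPS21 gave the largest difference of the named members with DMSO, at −0.81. MRPL42 and MRPS10 were called lower in N211del cells in both batches as deposited, and MRPL42, MRPS31 and MRPS35 were after centring. Over the 33 members the baseline difference correlated between batches with r = 0.20, and over all genes with −0.01. The difference with DMSO was more negative in longer genes, with a rank correlation of −0.69 over the members and −0.45 over all genes, and 10 of the 11 longest members were called lower, 8 after centring. The N211del response in batch 1 reuses these DMSO libraries, and the part of the baseline in it was not tested.

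In INTS11 cells of batch 1, 5 of 22 large-subunit genes were lower and 0 higher, and 4 of 10 small-subunit genes were lower and 1 higher. At 3 h in batch 2 these counts were 7 lower and 2 higher, and 3 lower and 2 higher. Of all genes, 19.8% were lower and 19.4% higher in batch 1, and 19.3% and 36.0% at 3 h in batch 2. Genes with a bacterial counterpart gave 3 lower of 17 in batch 1 and 4 at 3 h in batch 2, and mitochondria-specific ones 4 of 13 in both. After centring the genes with a bacterial counterpart gave 4 and 6 lower and the mitochondria-specific ones 2 and 5, so that in batch 1 the larger share changed sides. Of all genes, 24.5% and 28.9% were lower after centring in the same comparisons. No test between the subunits or between the origins was made.

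Other gene groups of mitochondrial translation and of respiration were counted in the same fits. Of all genes tested in batch 1, 19.8%, 21.0% and 7.10% were lower in INTS11, INTS8 and N211del cells. The shares higher were 19.4%, 34.6% and 48.5%. After centring, 24.5%, 36.4% and 35.2% of all genes were lower and 26.1%, 30.7% and 26.9% higher. At 3 h in batch 2, 13.8% were lower in N211del cells, and 35.1% after centring. Cytosolic ribosomal protein genes, many of which have pseudogene copies, were lower in 22 of 32 in INTS11 cells and in 24 of 32 in INTS8 cells of batch 1, and higher in 0. In N211del cells 4 were lower in batch 1 and 14 at 3 h in batch 2, and after centring 30 and 31 were. In INTS11 and INTS8 cells of batch 1 centring gave 21 and 30 lower. RPL22L1, a paralogue of RPL22, fell in all 3 lines of batch 1, by 0.66 in INTS11, 0.78 in INTS8 and 0.32 in N211del cells. Respiratory chain genes were lower in 21 of 43 and higher in 1 in INTS11 cells of batch 1, lower in 9 and higher in 3 in INTS8 cells, and lower in 5 and higher in 8 in N211del cells, where centring gave 27 lower and 2 higher. Centring gave 21 lower and 2 higher in INTS11 cells and 21 lower and 3 higher in INTS8 cells. NDUFS4, a subunit of the NADH dehydrogenase complex, was lower in INTS11 cells in both batches (−0.70 and −0.78 at 3 h). COX20, which helps to assemble cytochrome oxidase, was higher in INTS8 cells (0.51) and in N211del cells (0.62 and 0.65), also after centring.

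Of 11 genes for assembly of the mitochondrial ribosome, 4 were lower and 0 higher in INTS11 cells of batch 1, and 2 were lower and 0 higher at 3 h in batch 2, with 3 lower in each after centring. METTL17, needed for assembly of the small subunit, fell most, by 0.75 and 0.50. Of all genes, 19.8% and 19.3% were lower and 19.4% and 36.0% higher in these 2 comparisons. After centring, 24.5% and 28.9% of all genes were lower. Of 7 mitochondrial aminoacyl-tRNA synthetase genes, 5 were higher and 0 lower in N211del cells of each batch as deposited. Of all genes, 48.5% and 49.7% were higher and 7.10% and 13.8% lower there. After centring 1 synthetase gene was higher and 1 lower in batch 1, and 3 were higher and 1 lower in batch 2. The shares of all genes after centring were 26.9% and 30.9% higher and 35.2% and 35.1% lower. AARS2, which charges the alanine tRNA, had opposite signs, with −0.48 in INTS11 cells and 0.70 in INTS8 cells of batch 1, and −0.30 in INTS11 and 0.44 in N211del cells at 3 h in batch 2. NARS2, which charges the asparagine tRNA, was higher in INTS8 (0.54) and N211del cells (0.60 and 0.63), also after centring. Of 5 translation factor genes, 1 was lower and 0 higher in INTS11 cells of batch 1, and 1 was lower and 1 higher in INTS8 cells. LRPPRC, which binds mitochondrial messenger RNAs, fell by 0.21 and 0.14 in INTS11 cells. MTRF1 was higher in INTS8 cells (0.36) and in N211del cells (0.46 and 0.41). MTFMT was lower in INTS8 cells (−0.31) and in N211del cells at 3 h in batch 2 (−0.38). Of 12 regulators of nuclear genes for mitochondria, 5 were lower and 1 higher in INTS11 cells of batch 1, and 6 were lower and 3 higher in INTS8 cells. Of all genes, 19.8% and 21.0% were lower and 19.4% and 34.6% higher in these 2 comparisons. PPRC1, a coactivator related to PGC-1, fell by 0.59 in INTS11 cells of batch 1. PPARGC1A, the coactivator PGC-1alpha, was higher in INTS8 cells (0.61) and in N211del cells (1.00 and 1.01), and MYC was higher in N211del cells (0.49 and 0.63), also after centring.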

How the data were processed

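TT-seq values per gene were deposited for 24 libraries of 3 DLD1 lines in 2 batches. The labels' protocols name TRIzol extraction of total RNA and a stranded mRNA library kit. The submitters' processing notes name DESeq2 1.26.0, Picard 2.23.3, SAMtools 1.9, STAR 2.7.5c and Trim Galore 0.6.6, with the builds hg19 and mm10 and no role for either. The use of strand in counting was not given in the sources used here.

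The deposited values are FPKM per the file headers, but they behave as signal per kilobase: in batch 1, 100% of values were whole numbers divided by gene length within 0.001 units, and in batch 2 between 99.9% and 100% were, within 0.02 units, after 1 factor per library. They were treated as signal, although the tests had been written for FPKM. Gene lengths were recovered for 6828 of 6832 genes.

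Genes in all 12 files of a batch with a mean of at least 0.1 were tested (6579 in batch 1, 6950 in batch 2) on log2(value + 0.1) with limma 3.58.1 in R 4.3.3. Each group had its own mean, variances were moderated by robust empirical Bayes with a trend, and p-values had Benjamini-Hochberg adjustment within each of 17 comparisons, two-sided, at 0.05. Counts were repeated under 21 alternatives, given in the closing section. The fit was tested on simulated data. The labels call the replicates biological duplicates and do not say more of their origin, so p-values measure the spread between libraries. In 7 of 12 groups the 2 libraries differed by no more than about the sampling noise (chi-square per gene of at most 1.05). They were kept as 2 libraries because the labels call them biological, and the result with each such pair as 1 sample is given as an alternative. The count of columns of other samples was 0.

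The members, gene lists and tests were chosen with earlier results of these data known. Members named in the text are, by rule, those with the 3 largest rises or falls in a 3 h comparison, those called alike in every line or oppositely in 2 lines, those whose difference between lines was called in both batches, and the 3 highest and 3 lowest by level; others are said to be chosen after their values were seen or stand in complete lists of calls. Sequences are from RefSeq, GRCh38.p14, with 33 symbols matched. The rest was done in Python 3.11.15 with matplotlib 3.10.9, scipy 1.17.1, pandas 2.3.3 and numpy 2.4.6.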

Additional observations from a re-analysis of the deposited data

Results flagged for a closer look

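The response to dTAG13 differed between lines, by the test of the difference in limma, for the following named members. These differences share libraries with each other and with the single-line comparisons. For INTS8 minus INTS11 cells in batch 1 the log2 difference was 0.84 for MRPL1, 0.72 for MRPL22, 0.42 for MRPL39, 0.45 for MRPL42, 0.31 for MRPS5 and 0.64 for MRPS35. For N211del minus INTS11 cells in batch 1 it was 0.68 for MRPL1, 0.64 for MRPL22, 0.47 for MRPL39, 0.49 for MRPS5, 0.34 for MRPS18A, 0.38 for MRPS23 and 0.64 for MRPS35. At 1 h in batch 2 the N211del minus INTS11 difference was 0.90 for MRPL1, 0.47 for MRPL17, 0.70 for MRPL22, 0.34 for MRPL39, 0.26 for MRPL42, 0.52 for MRPL52, −0.22 for MRPL54, 0.35 for MRPS5, 0.25 for MRPS18A, 0.24 for MRPS23, 0.39 for MRPS28 and 0.64 for MRPS35. At 3 h in batch 2 it was 0.94 for MRPL1, 0.48 for MRPL17, 0.71 for MRPL22, 0.40 for MRPL39, 0.22 for MRPL42, 0.42 for MRPL52, 0.24 for MRPS5, 0.27 for MRPS18A, 0.19 for MRPS23, 0.48 for MRPS28 and 0.72 for MRPS35. The differences of MRPL1, MRPL22 and MRPS35 were called after centring in all 4 comparisons. Of the others, the call was lost after centring for MRPL39 and MRPS5 in INTS8 minus INTS11 cells, for MRPL39, MRPS18A and MRPS23 in the N211del difference of batch 1, for MRPL39, MRPL42, MRPS18A and MRPS23 at 1 h, and for MRPL42, MRPS5, MRPS18A and MRPS23 at 3 h. Groups of 2 libraries are too small to look for a library apart within a group.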

How the results depend on the processing

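Counts of members called, higher and lower together, are compared with those reported. Treating agreeing pairs of libraries as 1 sample gave 5 for INTS11 cells in batch 1 (10 as reported), 1 for INTS8 (7), 3 for N211del (8), 9 for INTS11 at 3 h in batch 2 (14), 0 between 1 and 3 h (2), 9 for N211del at 3 h (15) and 0 between 1 and 3 h (3). It gave 3 for INTS8 minus INTS11 (6), 4 for N211del minus INTS11 in batch 1 (10), 7 at 3 h in batch 2 (13) and 10 for N211del against INTS8 with DMSO (18). Centring gave 13 for INTS8, 20 for INTS11 at 1 h (13), 0 between 1 and 3 h, 6 for N211del minus INTS11 in batch 1 and 2 for N211del minus INTS8 (0). Removing the trend with level gave 11 for INTS8, 0 between 1 and 3 h in INTS11 cells, 6 for N211del minus INTS11 in batch 1, 2 for N211del minus INTS8 and 8 for N211del minus INTS11 at 1 h (15). Removing the trend with length gave 15 for INTS8, 22 for INTS11 at 1 h, 24 at 3 h, 0 between them, 4 for N211del minus INTS11 in batch 1, 2 for N211del minus INTS8 and 9 for N211del against INTS8 with DMSO. With no filter 1 was called between 1 and 3 h in INTS11 cells, and with a minimum mean of 1, 1 for N211del minus INTS8. Apart from the smaller number of samples under averaging, the cause was not tested.

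Leaving out 1 library at a time gave 2 to 11 for INTS8 cells, 3 to 13 for N211del cells in batch 1, 0 to 3 and 1 to 4 between 1 and 3 h in INTS11 and N211del cells, 7 to 19 for N211del minus INTS11 in batch 1 and 0 to 8 for N211del minus INTS8. The highest value of each batch 1 range came without N211del dTAG13 replicate 1. For N211del minus INTS8, 1 was called without INTS8 dTAG13 replicate 1, without INTS8 DMSO replicate 1 or without any 1 of the INTS11 libraries of batch 1. A group left with 1 library is assumed to vary like the others.

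Same-numbered replicates did not deviate together (correlations of −0.105 to 0.0822), so the number pairs nothing. With it as a replicate block, 1 member was called between 1 and 3 h in INTS11 cells and 1 for N211del minus INTS8, and the counts for INTS11, INTS8 and N211del cells in batch 1 were 11, 7 and 6.

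Among the named members, 39 values that were called as reported or under the alternative changed sign, all but 1 in N211del cells. Sign changes of values called under neither are not counted here. After centring these were, in batch 1, MRPL1 −0.058, MRPL17 −0.076, MRPL48 −0.17, MRPS5 −0.085, MRPS17 −0.0080 and MRPS35 −0.085. At 1 h they were MRPL1 −0.0055, MRPL17 −0.0067, MRPL52 −0.10, MRPL54 −0.093, MRPS5 −0.010, MRPS17 −0.054, MRPS23 −0.12 and MRPS35 −0.0053, and at 3 h MRPS5 −0.048, MRPS17 −0.026 and MRPS23 −0.042. With the level trend removed they were MRPL1 −0.025, MRPL48 −0.17, MRPS5 −0.011 and MRPS35 −0.025 in batch 1, and MRPL1 −0.0060, MRPL54 −0.099 and MRPS23 −0.055 at 1 h. With the length trend removed they were MRPL1 −0.063, MRPL17 −0.030, MRPL48 −0.16, MRPS5 −0.034 and MRPS35 −0.046 in batch 1. At 1 h they were MRPL1 −0.013, MRPL52 −0.093, MRPL54 −0.084, MRPS17 −0.045 and MRPS23 −0.096, and at 3 h MRPL52 −0.060, MRPS5 −0.011, MRPS17 −0.10 and MRPS23 −0.049. In INTS11 cells at 3 h MRPS17 became −0.050. Counts with pseudocounts of 0.01 and 1 stayed within 1.5 times those reported.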
